A study of Mus musculus with 13 samples.

Results

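The change in gene expression that accompanied tumor recurrence was compared between mice on stavudine and mice on plain water, in 11 individual mammary tumors of the 13 libraries in the series. The members were the 4 tumor groups named by the sample labels, and the 2 cancer-free mammary glands were not members. The quantity followed throughout was a difference of differences, called the interaction: the log2 change from primary to recurrent tumors under stavudine minus the log2 change from primary to recurrent tumors without it. A positive interaction means that the change with recurrence was more upward, or less downward, in the stavudine arm.

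All mice were FVB/N females of the transgenic line TgN (MMTV-HER2/neu) 202Mul/J, in which the mouse mammary tumor virus promoter drives rat HER2/Neu in mammary epithelium and tumors arise spontaneously, so the untreated controls carried the transgene too. The arm without stavudine held 3 primary untreated tumors and 3 recurrent 17-DMAG tumors, which had regrown during treatment with the HSP90 inhibitor 17-DMAG, injected at 20 mg/kg. The stavudine arm held 3 primary stavudine tumors, from mice given stavudine in the drinking water at 1 mg/mL, and 2 recurrent 17-DMAG plus stavudine tumors, from mice given both agents. Per the study's methods, 17-DMAG injections were given 3 times per week. In both recurrent groups they went on until the regrown tumor reached its size limit, so recurrence here means regrowth on the drug. Stavudine could begin early in life or once a tumor had appeared, and the primary stavudine tumors are described as having arisen in treated mice. The schedule of the mice with recurrent tumors on stavudine, and the age of each mouse when its tumor was taken, were not given in the sources used here. Tumors were labelled as individual samples but not by mouse, so p-values measure the spread between these tumors.

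HSP90 is a chaperone that holds HER2 and many other kinases in a stable fold, and its inhibition leads to loss of HER2 and to a heat shock response. Stavudine is a thymidine analog that cells phosphorylate with thymidine kinases, and its triphosphate blocks reverse transcriptases, that of the L1 retrotransposon included, and can also slow the mitochondrial DNA polymerase. In cycling cells the genes for DNA replication are transcribed first, and a later wave of cyclin B, kinesin and kinetochore genes carries the cell through mitosis.

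Total counts per tumor ran from 39921388 to 49484412, a ratio of 1.24, and 3 counts, the floor of detection used here, corresponded to 0.0606 to 0.0751 CPM (counts scaled to the total of the library). Of 24421 genes listed, 20548 had a count in at least 1 tumor and 16870 were expressed enough to be tested. In the tumors Erbb2, where transcripts of the rat transgene may be counted as well, took 0.392% to 1.91% of all counts. The epithelial adhesion gene Epcam was at 426 CPM or more in every tumor. Erbb2 took 1.26% and 0.635% of the counts of the 2 cancer-free glands, so its share does not tell tumor from gland. The tissue mixture differed within groups. Genes of skeletal muscle took 0.483% of the counts of primary untreated replicate 1, 0.171% of recurrent 17-DMAG replicate 3 and 0.642% of recurrent 17-DMAG plus stavudine replicate 2, against at most 0.0555% in the other 8 tumors. Fibroblast and matrix genes took 1.07% of the counts of recurrent 17-DMAG replicate 1, against 0.0711% to 0.352% in the other tumors.

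No gene passed the interaction test at an adjusted p under 0.05 (edgeR quasi-likelihood test, Benjamini-Hochberg adjustment over all genes tested). The smallest adjusted p, 0.435, was that of the transketolase gene Tkt. At an unadjusted p under 0.05 there were 1322 genes, which is 7.84% of those tested, 646 (3.83%) with a positive and 676 (4.01%) with a negative interaction. limma voom also called none after adjustment and had 1289 genes (7.64%) at an unadjusted p under 0.05, and DESeq2 had 1635 (9.79%). After adjustment DESeq2 called 189 of the 16053 genes to which it gave an adjusted p (1.18%), 68 positive (0.424%) and 121 negative (0.754%), and all of these were among the 1322. The calls therefore depended on the tool, and all values below are from edgeR unless DESeq2 is named. The number of genes at an unadjusted p under 0.05 was also set by single tumors, at 2241 without recurrent 17-DMAG replicate 1 and 674 without recurrent 17-DMAG plus stavudine replicate 2. Without recurrent 17-DMAG plus stavudine replicate 1, 77 genes passed the adjusted threshold, 23 positive and 54 negative, and the only other omission to give a call was that of recurrent 17-DMAG replicate 1, with 1 gene, Kctd12b.

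Taken singly, the 2 arms did not yield a called gene either. Recurrence without stavudine gave 808 genes higher (4.79%) and 827 lower (4.90%) at an unadjusted p under 0.05. Recurrence under stavudine gave 914 genes higher (5.42%) and 782 lower (4.64%). The plot of one arm against the other shows how these changes combined. Among the 1322 genes the group mean farthest from the other 3 was that of the recurrent 17-DMAG plus stavudine tumors for 702 (53.1%), against 32.3% of all genes tested. It was that of the recurrent 17-DMAG tumors for 278 (21.0%), against 24.3% of all genes. These shares cannot tell which group set the interaction, because the 1322 genes were selected on a value built from the same group means. The recurrent 17-DMAG plus stavudine group also held the fewest tumors, 2 against 3, so its mean was the least precisely known. That the arms had opposite signs for 90.5% of the 1322 genes, against 42.7% of all genes, is favored by the way an interaction is built and was read no further.

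**Figure D1:**
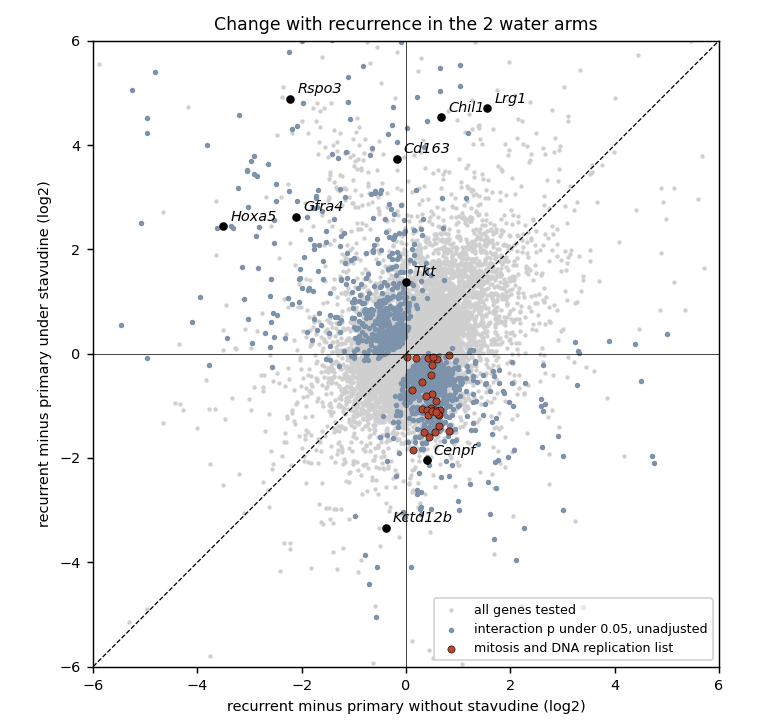
Log2 change with recurrence without stavudine (x axis) against the log2 change under stavudine (y axis); gray points are all genes tested, blue points have an unadjusted interaction p under 0.05, red points are mitosis and DNA replication genes, black points are named genes, and genes on the diagonal have an interaction of 0. The 30 genes of the mitosis and DNA replication list all lie right of 0 and below 0; 54 genes fall outside the axes.

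Mitotic genes made up a uniform block with a negative interaction: they ran higher in recurrent than in primary tumors without stavudine, and lower in recurrent than in primary tumors under it. All 30 members of a list of mitosis and DNA replication genes had an interaction below 0, where 47.5% of all genes did. Their median was -1.50 (log2, range -2.43 to -0.07), beside 0.03 over all genes tested. At an unadjusted p under 0.05, 23 of the 30 were negative, where 4.01% of all genes were, and none passed after adjustment. DESeq2 called 13 of them, all negative. The median change with recurrence was 0.49 without stavudine, with 30 of 30 genes above 0 and 5 at an unadjusted p under 0.05. Under stavudine it was -1.06, with 30 of 30 below 0 and 22 at an unadjusted p under 0.05. For 19 of the 30 genes the recurrent and primary tumors did not overlap in either arm and lay in opposite orders, a pattern found in 1.36% of all genes.

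Ccnb1, which encodes cyclin B1, the partner of CDK1 at entry into mitosis, had the smallest p of the list. It lay at chromosome 13, 100778650 to 100786570 (GRCm38, minus strand). Without stavudine its CPM was 28.9, 20.8 and 28.4 in primary and 35.4, 34.2 and 35.7 in recurrent tumors. Under stavudine it was 22.0, 33.9 and 24.1 in primary and 11.8 and 5.78 in recurrent tumors. The recurrent tumors were the highest of all without stavudine and the lowest of all with it. The log2 change was 0.43 without and -1.60 with stavudine, an interaction of -2.03 (SE 0.41, edgeR adjusted p = 0.435; DESeq2 adjusted p = 0.00268).

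Mki67, which encodes the proliferation antigen Ki-67, placed the recurrent groups in the same way. Its CPM was 448, 368 and 460 in primary untreated, 552, 530 and 532 in recurrent 17-DMAG, 327, 506 and 440 in primary stavudine, and 209 and 88.7 in recurrent 17-DMAG plus stavudine tumors. The 3 recurrent tumors without stavudine lay above all others, the 2 with it below all others. Its interaction was -1.85 (SE 0.43, edgeR adjusted p = 0.435). Cenpf, a kinetochore gene, had the lowest value of the list: 115, 72.7 and 121 CPM in primary untreated tumors, 122, 149 and 133 in recurrent 17-DMAG, 87.7, 160 and 109 in primary stavudine, and 43.6 and 14.4 in recurrent 17-DMAG plus stavudine tumors. In Cenpf the recurrent tumors without stavudine exceeded their primary tumors by little (122 against 121 CPM at the closest), and the recurrent tumors with stavudine were again the lowest of the 11. Its interaction was -2.43 (SE 0.59, edgeR adjusted p = 0.435).

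Within the list the values differed by part of the cycle, in a split by known function that was made after the values had been seen. The histone genes of DNA synthesis, described below and not in the list, lay between the parts. The 19 genes of mitosis had a median interaction of -1.73 (range -2.43 to -1.20), all with an unadjusted p under 0.05. In 17 of them both recurrent 17-DMAG plus stavudine tumors lay below the 9 other tumors, which was so for 3.22% of all genes. The 9 genes of DNA replication had a median of -0.70 (range -0.90 to -0.07), 3 of them with an unadjusted p under 0.05, and in none did both tumors lie below the 9 others. Their change with recurrence was close to that of the mitotic genes without stavudine, at a median of 0.41 against 0.50. Under stavudine it was -0.10 against -1.17. Those 3 replication genes were Pcna (-0.85), the sliding clamp of DNA polymerase, Mcm6 (-0.90), a subunit of the replicative helicase, and Tyms (-0.82), thymidylate synthase. Rrm2, a ribonucleotide reductase subunit, had the value nearest 0 (-0.07, SE 0.24). Of 2 transcription factors in the list, Foxm1, an activator of the mitotic wave, was at -1.27 (SE 0.40, edgeR adjusted p = 0.497), and E2f1, an activator of replication genes, at -0.85 (SE 0.52, edgeR adjusted p = 0.719).

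**Figure D2:**
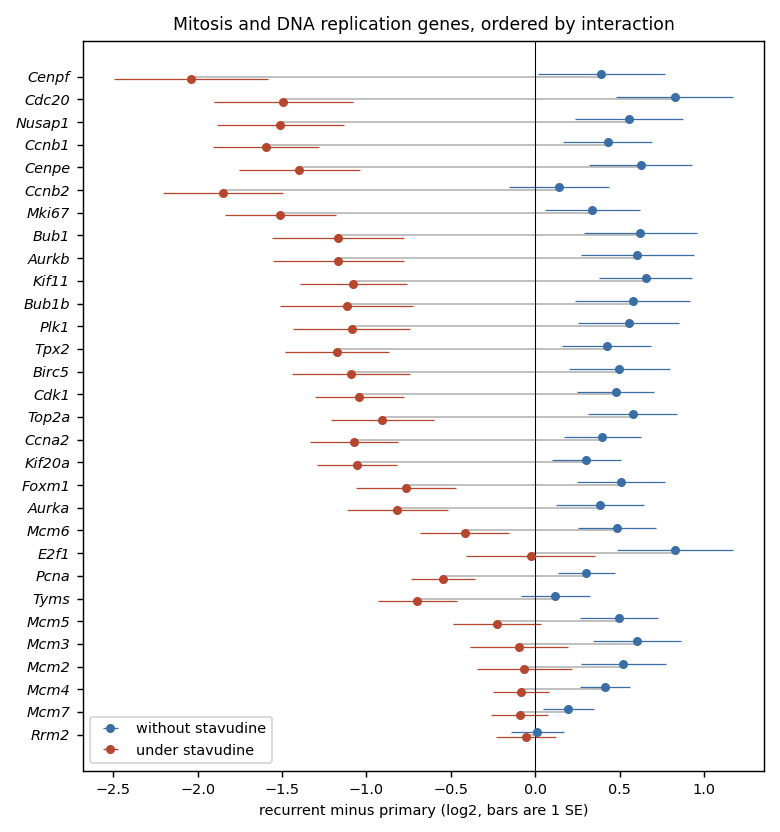
Log2 change from primary to recurrent tumors for each of the 30 genes of the list, without stavudine and under stavudine (points on a log2 axis, bars 1 SE). Without stavudine all 30 points are above 0 (median 0.49), under stavudine all are below 0 (median -1.06), and the genes of DNA replication and E2f1 lie nearest to 0 there.

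Promoters are shown as background. The mitotic wave is known to be directed by the cell cycle genes homology region (CHR), usually TTTGAA, and by CCAAT boxes. Any part of such sites in the interaction was not tested. The 3 sequences are the 250 bases before the RefSeq start of the 3 genes with the smallest interaction p, of the 24 list genes with a promoter in the RefSeq table, whose window held at most 30 annotated exon bases. They were taken from RefSeq on GRCm38.p6, are written 5′ to 3′ on the strand of the gene, and have in capitals every TTTGAA or TTCGAA and every CCAAT, or its reverse complement ATTGG.
Ccnb2, chr9:70421555-70421804, minus strand: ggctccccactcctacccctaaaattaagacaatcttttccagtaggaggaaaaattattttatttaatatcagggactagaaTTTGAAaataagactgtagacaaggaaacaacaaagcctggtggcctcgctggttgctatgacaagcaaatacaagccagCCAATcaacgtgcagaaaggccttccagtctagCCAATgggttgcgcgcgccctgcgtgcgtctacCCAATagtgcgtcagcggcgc
Cdk1, chr10:69352913-69353162, minus strand: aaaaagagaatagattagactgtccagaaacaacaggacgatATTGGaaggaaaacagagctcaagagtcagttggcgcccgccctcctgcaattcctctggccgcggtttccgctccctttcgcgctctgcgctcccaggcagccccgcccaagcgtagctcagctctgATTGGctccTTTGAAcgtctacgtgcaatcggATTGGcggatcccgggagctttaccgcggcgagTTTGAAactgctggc
Mki67, chr7:135716380-135716629, minus strand: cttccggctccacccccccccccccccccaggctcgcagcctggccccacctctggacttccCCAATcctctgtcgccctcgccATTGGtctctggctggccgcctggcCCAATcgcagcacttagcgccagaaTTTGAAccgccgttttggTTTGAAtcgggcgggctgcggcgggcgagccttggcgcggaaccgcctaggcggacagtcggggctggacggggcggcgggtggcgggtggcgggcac
Ccnb2 had 1 CHR match and 3 CCAAT matches in this window, and Cdk1 and Mki67 had 2 and 3. Of those 24 list genes, 9 held a CHR match on either strand and 20 a CCAAT match, while 17.1% and 33.8% of 32851 promoters of the same length did. A list gene was counted if any of its promoters matched, while the shares over all are per promoter, so the measures are not alike. Both motifs were found in the same 9 genes, against 6.02% of all promoters. Among the 16 genes of mitosis and its transcription factors 7 held both, and among the 8 of replication 2 did. A match describes these letters only, and many of the list genes are known from earlier work to carry such sites.

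The 8 genes named by rule for the smallest p among negative interactions were H2afz, Kif18b, Kctd12b, Knstrn, Ccnb1, Slc15a2, Anln and Cenpa, of which only Ccnb1 was in the mitosis list, and DESeq2 called every one of them. H2afz, which encodes the histone variant H2A.Z, came first (chromosome 3, 137864487 to 137866922, plus strand). It was at 78.5, 63.4 and 76.4 CPM in primary untreated, 101, 86.9 and 84.5 in recurrent 17-DMAG, 79.6, 89.8 and 79.5 in primary stavudine, and 52.6 and 40.3 in recurrent 17-DMAG plus stavudine tumors. Recurrent and primary tumors did not overlap in either arm, and the log2 changes were of opposite sign, 0.32 without and -0.84 with stavudine. The interaction was -1.16 (SE 0.21, edgeR adjusted p = 0.435). Cenpa, the histone H3 variant of centromeres, was at 19.9 to 21.3 CPM in primary untreated, 25.6 to 26.5 in recurrent 17-DMAG, 15.1 to 23.2 in primary stavudine, and 9.18 and 4.38 in recurrent 17-DMAG plus stavudine tumors, with an interaction of -1.87 (SE 0.38). The spindle motor Kif18b (-1.58, SE 0.31), the kinetochore gene Knstrn (-1.65, SE 0.33) and the cytokinesis gene Anln (-1.72, SE 0.35) were likewise highest on average in recurrent 17-DMAG and lowest in recurrent 17-DMAG plus stavudine tumors.

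Kctd12b and Slc15a2 completed the 8. Kctd12b, on the X chromosome, was at 35.6, 40.1 and 51.9 CPM in primary untreated, 14.1, 43.0 and 40.1 in recurrent 17-DMAG, 38.4, 53.0 and 40.5 in primary stavudine, and 3.71 and 5.01 in recurrent 17-DMAG plus stavudine tumors. Both recurrent tumors on stavudine were far below the other 9, among which recurrent 17-DMAG replicate 1 was the lowest. Its interaction was -2.94 (SE 0.57, edgeR adjusted p = 0.435), and -3.33 without that tumor. Slc15a2, a proton-coupled peptide transporter, was at 107 to 136 CPM in primary untreated, 163 to 197 in recurrent 17-DMAG, 155 to 200 in primary stavudine, and 119 and 128 in recurrent 17-DMAG plus stavudine tumors. Here the 2 recurrent tumors on stavudine lay between the lowest and highest primary untreated tumor, and the interaction was -1.04 (SE 0.21, edgeR adjusted p = 0.435).

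Histone genes that are transcribed with DNA synthesis had a negative interaction too, in a family picked after its values had been seen. Of 57 such genes tested, 55 were below 0, with a median of -1.11, and 44 had an unadjusted p under 0.05, where 4.01% of all genes did. Their summed CPM was 1449, 1341 and 1400 in primary untreated and 1929, 1874 and 1888 in recurrent 17-DMAG tumors. It was 1248, 1616 and 1695 in primary stavudine and 1329 and 800.2 in recurrent 17-DMAG plus stavudine tumors. The highest sums were those of the recurrent tumors without stavudine, and only replicate 2 of the recurrent tumors with stavudine lay below all others. The medians of the arms were 0.64 without and -0.51 with stavudine. Their median interaction was thus lower than that of the 9 replication genes of the list (-0.70) and higher than that of its mitotic genes (-1.73). Histone copies share sequence, so the counts of single copies are uncertain, and libraries depleted of ribosomal RNA, as here, hold their RNAs, most of which end without a poly(A) tail.

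Size in the stavudine arm rested unevenly on its 2 recurrent tumors. The mean log2 CPM over the 30 mitosis and replication genes was 5.28, 4.81 and 5.05 in primary untreated, 5.62, 5.38 and 5.54 in recurrent 17-DMAG, 4.96, 5.34 and 5.26 in primary stavudine, and 4.68 and 3.73 in recurrent 17-DMAG plus stavudine tumors. Both recurrent tumors on stavudine lay below the other 9. The median interaction was -2.14 without replicate 1 of that group and -1.12 without replicate 2, with 30 and 29 of 30 genes below 0. Replicate 2 was also the tumor with the most skeletal muscle counts (0.642%) and the lowest luminal epithelial share (0.290%, against 0.420% to 0.483% in the other tumors), and the part of these in the result was not tested. Replicate 1 had 0.00734% muscle counts and a luminal share of 0.426%. In bulk tumors, fewer cells in cycle and less of these RNAs per cell cannot be told apart.

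Among positive interactions the leading gene was Tkt, which encodes transketolase, an enzyme of the non-oxidative pentose phosphate pathway that makes ribose for nucleotides (chromosome 14, 30548359 to 30574720, plus strand). It was at 201, 182 and 155 CPM in primary untreated, 180, 167 and 191 in recurrent 17-DMAG, 140, 164 and 162 in primary stavudine, and 355 and 453 in recurrent 17-DMAG plus stavudine tumors. The first 3 groups overlapped and the fourth lay well above them; both recurrent tumors on stavudine were above the 9 others in 456 genes (2.70%). The change with recurrence was -0.002 (SE 0.14) without stavudine and 1.38 (SE 0.15) with it. The interaction was 1.38 (95% interval 0.92 to 1.84, edgeR adjusted p = 0.435; DESeq2 adjusted p = 2.2e-05). It ran from 1.17 without recurrent 17-DMAG plus stavudine replicate 2 to 1.51 without replicate 1.

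Chil1, a secreted chitinase-like glycoprotein made by macrophages and by epithelia under inflammation, had the highest CPM of the 8 genes named by smallest p with a positive interaction (chromosome 1, 134182176 to 134190181, plus strand). Its CPM was 131, 243 and 279 in primary untreated, 632, 242 and 169 in recurrent 17-DMAG, 91.0, 196 and 134 in primary stavudine, and 2970 and 3530 in recurrent 17-DMAG plus stavudine tumors. The recurrent tumors with stavudine stood far above the 9 others, of which recurrent 17-DMAG replicate 1, the tumor rich in matrix genes, was the highest. Its interaction was 3.86 (SE 0.74, edgeR adjusted p = 0.435), and 4.58 without that tumor. Lrg1, a secreted glycoprotein of the acute phase, was at 8.26 to 9.03 CPM in primary untreated, 49.5, 13.1 and 12.9 in recurrent 17-DMAG, 5.01 to 10.0 in primary stavudine, and 271 and 81.1 in recurrent 17-DMAG plus stavudine tumors. Lrg1 was thus above the primary tumors in both arms, by 1.55 without and 4.71 with stavudine (log2), and its interaction was 3.16 (SE 0.89, edgeR adjusted p = 0.471). It was 2.01 without recurrent 17-DMAG plus stavudine replicate 1, the higher of the pair.

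The other genes named by smallest p were Gfra4, Tmem180, Rspo3, Pcdhgb2, Ptger1 and Acp5. Gfra4, a co-receptor for ligands of the GDNF family (chromosome 2, 131039632 to 131043088, minus strand), was at 1.37, 2.79 and 1.95 CPM in primary untreated, 0.244, 0.719 and 0.444 in recurrent 17-DMAG, 1.36, 0.712 and 0.728 in primary stavudine, and 3.50 and 8.07 in recurrent 17-DMAG plus stavudine tumors. It was lowest on average in recurrent tumors without stavudine and highest in both of those with it, an interaction of 4.74 (SE 0.77, edgeR adjusted p = 0.435). Tmem180 (1.77, SE 0.33) and the cell adhesion gene Pcdhgb2 (1.99, SE 0.38) were highest in both recurrent tumors on stavudine, at 13.8 and 17.6 CPM and at 16.1 and 30.2 CPM. Acp5, a lysosomal acid phosphatase of macrophages and osteoclasts, was at 36.0 to 45.5 CPM in the 9 other tumors and at 63.1 and 69.6 in recurrent tumors on stavudine, with an interaction of 0.88 (SE 0.18). Ptger1, a receptor for prostaglandin E2, differed by the other recurrent group: it was at 22.4, 23.0 and 23.2 CPM in recurrent 17-DMAG tumors, 30.1 to 33.4 in both primary groups, and 35.8 and 36.0 in recurrent 17-DMAG plus stavudine tumors. Its interaction was small, 0.68, and precise (SE 0.14, edgeR adjusted p = 0.435).

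**Figure D3:**
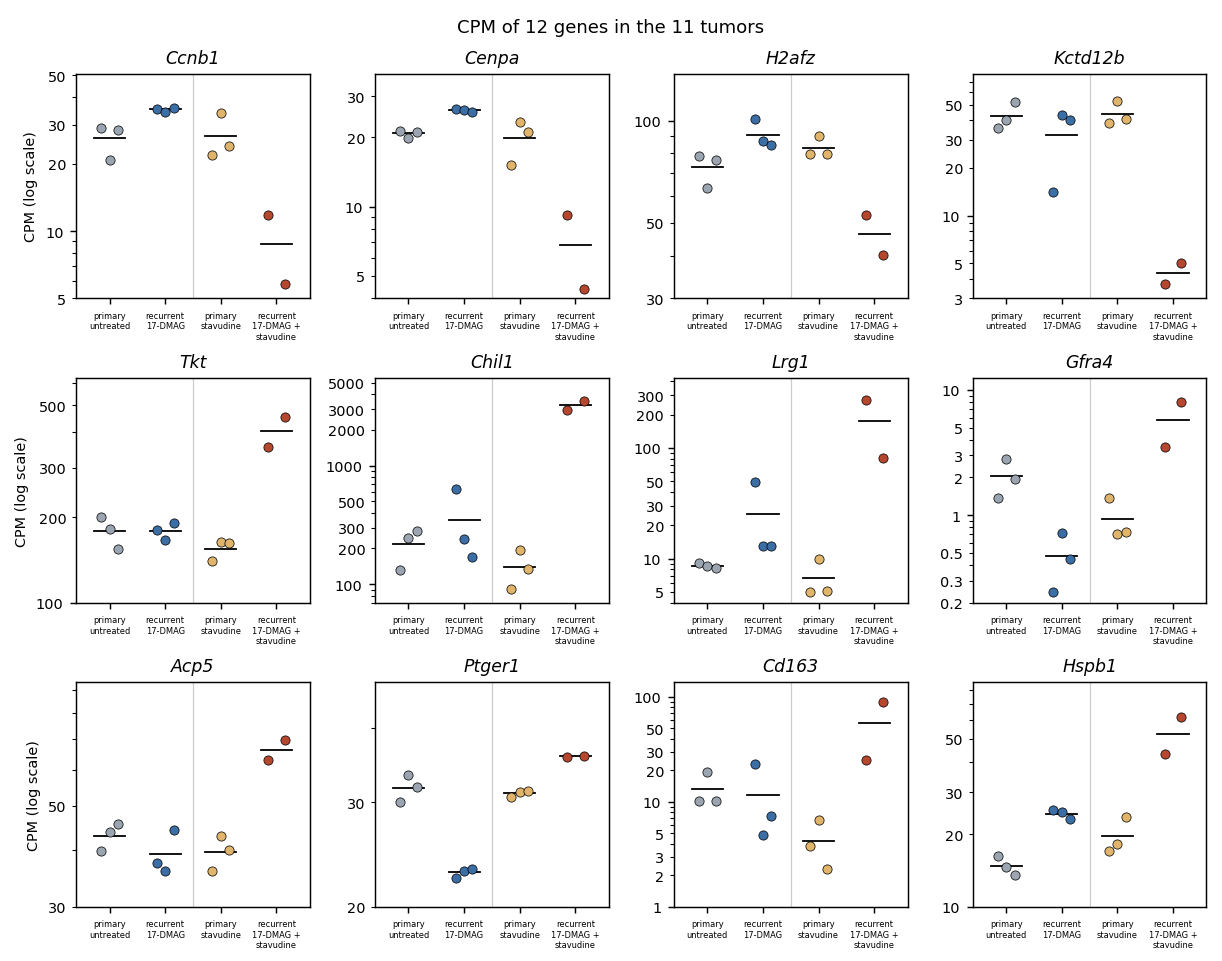
CPM (log axis) of 12 genes in the 11 tumors; each point is a tumor, bars are group means, and the gray line separates the arms without and with stavudine. Ccnb1, Cenpa, H2afz and Kctd12b are lowest, and Tkt, Chil1, Lrg1, Gfra4, Acp5, Ptger1, Cd163 and Hspb1 highest, in the 2 recurrent 17-DMAG plus stavudine tumors.

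A full crossing, with no overlap between recurrent and primary tumors in either arm and opposite orders, was found in 121 genes (0.717%) that were lower in recurrent tumors without stavudine and higher with it, and in 229 genes (1.36%) of the reverse order. Recurrent tumors were apart from primary tumors in the same direction in both arms in 204 genes when higher (1.21%) and 330 when lower (1.96%). Of those whose mean log2 CPM was 1 or more, the 4 with the largest interaction in each direction included Rspo3, Ptgds and Hoxa5 above 0, and Tnf, Cenpf, Cdc14a and Kif2c below 0. Rspo3, a secreted enhancer of Wnt signaling (chromosome 10, 29452416 to 29535867, minus strand), was at 2.19, 6.30 and 3.20 CPM in primary untreated, 0.244, 1.37 and 0.888 in recurrent 17-DMAG, 0.146, 0.505 and 0.0882 in primary stavudine, and 2.10 and 12.7 in recurrent 17-DMAG plus stavudine tumors. It was high in primary tumors on plain water and in recurrent tumors on stavudine, and low in the remaining groups, an interaction of 7.11 (SE 1.36, edgeR adjusted p = 0.435). Some primary stavudine tumors were within a few counts of the detection floor, so the size of this value depends on few reads.

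Hoxa5, a homeobox transcription factor of positional identity, was at 1.20, 14.8 and 12.4 CPM in primary untreated, 0.325 to 1.10 in recurrent 17-DMAG, 0.341 to 1.84 in primary stavudine, and 6.51 and 3.45 in recurrent 17-DMAG plus stavudine tumors, with an interaction of 5.96 (SE 1.39). Ptgds, which makes prostaglandin D2, was at 0.844, 12.7 and 1.61 CPM in primary untreated tumors, below 1 CPM in recurrent 17-DMAG and primary stavudine tumors, and at 1.98 and 3.04 in recurrent 17-DMAG plus stavudine tumors, with an interaction of 6.04 (SE 1.49). Primary untreated replicate 2 was far above the rest of its group, and primary stavudine replicate 1 had 4 counts, near the floor of 3. The Ptgds interaction ran from 4.0 to 6.5 when single tumors were left out.

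Of the crossing genes with a negative interaction, Cenpf and Kif2c belong to the mitotic wave. Kif2c, a kinesin that depolymerizes microtubules, was at 15.1, 6.49 and 12.2 CPM in primary untreated, 19.7 to 22.6 in recurrent 17-DMAG, 10.4 to 19.1 in primary stavudine, and 7.95 and 2.89 in recurrent 17-DMAG plus stavudine tumors (interaction -2.35, SE 0.63). Cdc14a, a phosphatase that acts on proteins phosphorylated by CDK1, was at 39.6 to 73.5 CPM in primary untreated, 84.6 to 103 in recurrent 17-DMAG, 92.4, 200 and 96.1 in primary stavudine, and 46.4 and 39.9 in recurrent 17-DMAG plus stavudine tumors (interaction -2.38, SE 0.49). In Cdc14a the recurrent tumors with stavudine were close to the primary untreated tumors. Tnf, the inflammatory cytokine, was at 2.38, 0.283 and 1.51 CPM in primary untreated, 2.99 to 3.84 in recurrent 17-DMAG, 1.54 to 3.75 in primary stavudine, and 1.32 and 0.690 in recurrent 17-DMAG plus stavudine tumors (interaction -2.79, SE 1.00, edgeR adjusted p = 0.575). It had low counts and the widest relative error of the 4.

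Homeobox and protocadherin genes, families picked after their values had been seen, had positive interactions. The 8 Hoxa genes tested were all above 0, with a median of 5.88, and 7 had an unadjusted p under 0.05, where 3.83% of all genes did. Their summed CPM was 3.63, 46.8 and 40.6 in primary untreated, 5.28, 1.07 and 3.57 in recurrent 17-DMAG, 1.61, 4.41 and 1.12 in primary stavudine, and 19.3 and 12.7 in recurrent 17-DMAG plus stavudine tumors. Primary untreated replicate 1 was as low as the recurrent 17-DMAG tumors, and the other 2 primary untreated tumors were the highest of all, so the recurrent tumors on stavudine lay within the range of that group. The 7 Hoxb genes had interactions above 0, at a median of 2.02, with none at an unadjusted p under 0.05, but in another pattern. Their median change with recurrence was below 0 in both arms, -2.18 without and -0.42 with stavudine, where that of the Hoxa genes was -3.10 and 2.45. The summed CPM of the Hoxb genes was 24.4, 86.5 and 99.3 in primary untreated tumors. It was 4.47 and 6.69 in recurrent 17-DMAG plus stavudine tumors. All 22 genes of the protocadherin gamma cluster, which encode neighboring adhesion proteins that share their last exons, were above 0, at a median of 1.20, and 11 had an unadjusted p under 0.05. Their summed CPM was 172.9, 252.2 and 253.1 in primary untreated, 218.2, 197.8 and 150.0 in recurrent 17-DMAG, 132.5, 183.3 and 193.9 in primary stavudine, and 303.1 and 483.7 in recurrent 17-DMAG plus stavudine tumors. Both recurrent tumors on stavudine exceeded all others. In the beta cluster 9 of 22 genes had an unadjusted p under 0.05 with a positive interaction, at a median of 1.25 over the 22, but the sums of both recurrent tumors on stavudine, 307.6 and 235.0, were no higher than the highest primary untreated tumor (363.6). Reads from shared exons or near-identical copies can be split among members of a cluster, so counts of single protocadherins are uncertain.

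**Figure D4:**
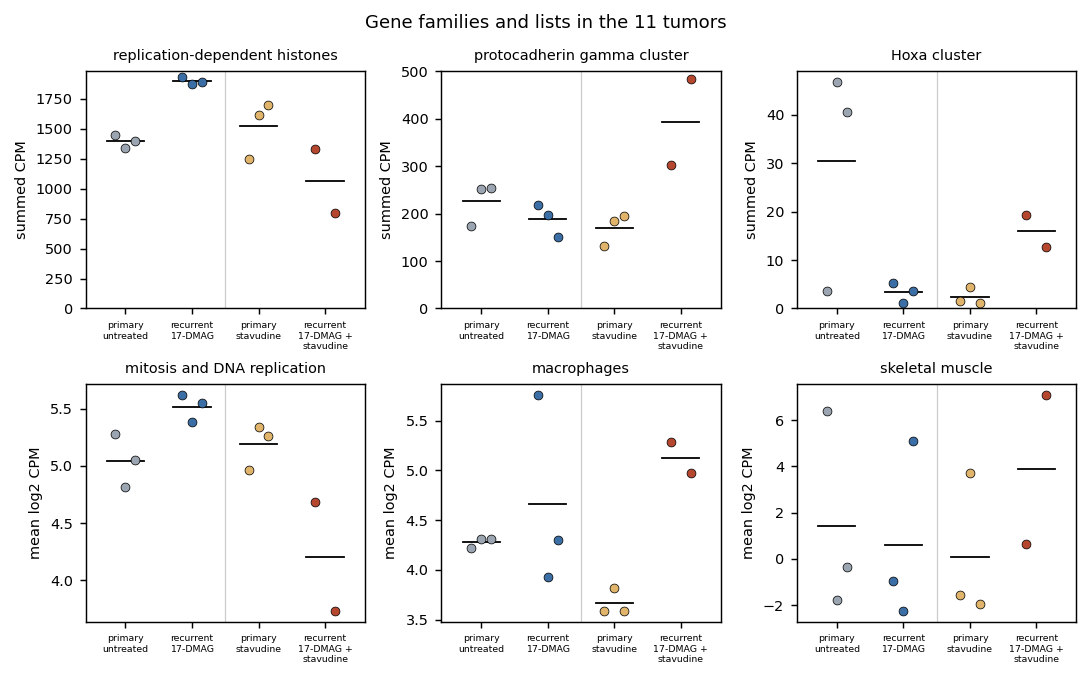
Summed CPM of 3 gene families and mean log2 CPM of 3 gene lists in the 11 tumors; points are tumors, bars are group means, and the gray line separates the arms. The mitosis list is lowest in the 2 recurrent 17-DMAG plus stavudine tumors, and the skeletal muscle list is high in single tumors of every group, up to 7.10 in recurrent 17-DMAG plus stavudine replicate 2.

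Macrophage genes were higher with recurrence under stavudine, where 10 of 18 markers were above at an unadjusted p under 0.05 (5.42% of all genes were), and 2 were without it (4.79% of all genes). Of the 18 markers, 16 had a positive interaction, where 52.5% of all genes did, and the median was 0.49. At an unadjusted p under 0.05, 3 were positive, where 3.83% of all genes were: Cd163 (3.92, SE 1.01), the hemoglobin scavenger receptor, Gpnmb (4.49, SE 1.51), a lysosomal membrane glycoprotein, and Trem2 (0.92), a lipid receptor. Cd163 was at 10.2, 19.2 and 10.2 CPM in primary untreated, 22.8, 4.80 and 7.32 in recurrent 17-DMAG, 3.80, 6.64 and 2.29 in primary stavudine, and 24.8 and 88.6 in recurrent 17-DMAG plus stavudine tumors. Its values were highest in both recurrent tumors on stavudine, with recurrent 17-DMAG replicate 1 close below the lower of them, and DESeq2 called it (adjusted p = 0.0132). The only 2 markers below 0 were Csf1r, the receptor for the growth factor CSF1, at -0.16 (SE 0.45), and Adgre1, which encodes F4/80, at -0.01 (SE 0.60). The median change with recurrence of the list was 0.67 without and 0.99 with stavudine. The mean log2 CPM of the list was 4.22, 4.32 and 4.31 in primary untreated, 5.76, 3.92 and 4.30 in recurrent 17-DMAG, 3.59, 3.82 and 3.59 in primary stavudine, and 5.28 and 4.97 in recurrent 17-DMAG plus stavudine tumors. The primary stavudine tumors all lay below the primary untreated tumors, so the stavudine arm started from a lower level. Of the recurrent tumors without stavudine only replicate 1, the highest tumor of all, exceeded its primary tumors. Without that replicate the median change in that arm was -0.12, with 4 of 18 genes above 0. The list took 0.200% of the counts of recurrent 17-DMAG replicate 1, 0.159% and 0.128% of those of the recurrent tumors on stavudine, and 0.0630% to 0.0866% elsewhere. Without recurrent 17-DMAG replicate 1 the median interaction of the list was 1.10.

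Acute phase and chitinase-like genes had 10 of 16 members above 0, where 52.5% of all genes were, and a median of 0.24. At an unadjusted p under 0.05, 3 were positive, where 3.83% of all genes were: Chil1, Lrg1 and Lcn2, an iron-withholding lipocalin (1.49, SE 0.54). Without recurrent 17-DMAG replicate 1 the median was 1.57, and without recurrent 17-DMAG replicate 3 it was -0.02. The median change of the list was 1.24 without and 1.81 with stavudine. At an unadjusted p under 0.05, 5 and 8 genes were higher, where 4.79% and 5.42% of all genes were. The first of these medians was 0.38, over the 14 genes then tested, without recurrent 17-DMAG replicate 1. Fibroblast and matrix genes had changes above 0 for all 18 members in each arm, with medians of 1.24 without and 1.19 with stavudine. Only 1 and 2 of them were higher at an unadjusted p under 0.05, where 4.79% and 5.42% of all genes were. Their mean log2 CPM was 5.98, 5.57 and 4.81 in primary untreated, 8.05, 4.76 and 5.84 in recurrent 17-DMAG, 5.42, 4.65 and 4.05 in primary stavudine, and 6.08 and 6.57 in recurrent 17-DMAG plus stavudine tumors. Without stavudine the value above 0 rested on recurrent 17-DMAG replicate 1, and without that tumor the median change was -0.13, with 4 of 18 genes above 0. Their median interaction was 0.18, with none at an unadjusted p under 0.05, and it moved to 1.62 without recurrent 17-DMAG replicate 1. Endothelial genes had a median of 0.17 with none of 12 at an unadjusted p under 0.05.

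Lymphocyte and granulocyte markers showed no gene at an unadjusted p under 0.05 in 13 T cell, 6 B and plasma cell and 9 neutrophil genes, with medians of -0.01, 0.76 and 0.73. Ptprc, which encodes the pan-leukocyte protein CD45, had an interaction of -0.34 (95% interval -1.48 to 0.81, edgeR adjusted p = 0.916), and several of these markers were near the floor of detection. Luminal genes were mostly below 0 (13 of 15, median -0.50), where 47.5% of all genes were below and 52.5% above. Epcam was at 923 to 1320 CPM in the 9 other tumors and at 783 and 426 in the recurrent tumors on stavudine, an interaction of -0.80 (SE 0.31, edgeR adjusted p = 0.6), and the prolactin receptor gene Prlr was at 0.98 (SE 0.27, edgeR adjusted p = 0.471). The basal list had a median of -0.44, with 1 of 12 genes, the contractile kinase gene Mylk (1.09, SE 0.43), at an unadjusted p under 0.05. Of all genes, 3.83% were positive at that threshold. Skeletal muscle genes had the largest median of any list, 4.75, and all 16 above 0, but none at an unadjusted p under 0.05, and the median was -0.85 without primary untreated replicate 1. Adipocyte genes had a median of 0.81 with none at an unadjusted p under 0.05. Milk protein genes had a median of 0.34 and 1 of 10 at an unadjusted p under 0.05, Glycam1, which had no count in any primary stavudine tumor and is given no fold.

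Of 24 heat shock and HSP90 cochaperone genes 16 were above 0, where 52.5% of all genes were, with a median of 0.13. Hspb1, the small heat shock protein HSP27, alone had an unadjusted p under 0.05, which is 1 of 24 where 3.83% of all genes were positive. It was at 16.2, 14.7 and 13.5 CPM in primary untreated, 25.4, 24.8 and 23.1 in recurrent 17-DMAG, 17.0, 18.3 and 23.7 in primary stavudine, and 43.2 and 61.6 in recurrent 17-DMAG plus stavudine tumors. It was above the primary tumors in both arms without overlap, by 0.72 without and 1.41 with stavudine, and the interaction was 0.69 (SE 0.26, edgeR adjusted p = 0.586). The inducible chaperones Hspa1a (0.15, 95% interval -0.94 to 1.24) and Hspa1b (-0.13, 95% interval -1.09 to 0.84), near-identical copies that can share reads, had intervals that leave a difference in either direction possible. Among 20 drug transport and NRF2 target genes none had an unadjusted p under 0.05 and the median was 0.19. Nqo1, an NRF2 target that can reduce the quinone of 17-DMAG, was at 7.75 ± 5.26 CPM (SD, n = 3) in primary untreated, 51.0, 29.0 and 19.1 in recurrent 17-DMAG, 8.45, 12.5 and 17.7 in primary stavudine, and 46.9 and 17.2 in recurrent 17-DMAG plus stavudine tumors. It was higher with recurrence by 2.09 without and 1.32 with stavudine, and the interval of the interaction, -3.02 to 1.47, does not settle a difference. The multidrug transporter genes Abcb1a (0.19, SE 0.72) and Abcb1b (1.52, SE 0.85) are close copies too, and the value of Abcb1b was 0.01 without recurrent 17-DMAG plus stavudine replicate 2.

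Erbb2 was at 10200, 20400 and 17100 CPM in primary untreated, 3900, 8510 and 10900 in recurrent 17-DMAG, 9570, 11400 and 9520 in primary stavudine, and 13800 and 8160 in recurrent 17-DMAG plus stavudine tumors. The recurrent tumors without stavudine tended to the low end and overlapped with the primary untreated tumors at 1 value, and the 2 recurrent tumors with stavudine lay on either side of their primary tumors. The interaction was 1.15 (95% interval -0.16 to 2.45, edgeR adjusted p = 0.672). The 23 genes of HER2 and MAPK output had a median of -0.04 and 2 at an unadjusted p under 0.05 in each direction, where 3.83% of all genes were above and 4.01% below 0: Phlda1 (1.44, SE 0.56) and Dusp4 (0.92) above 0, and the MAPK feedback inhibitor Spry1 (-1.34) and the ligand gene Areg, which was near the floor, below 0.

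Genes that handle nucleotides and stavudine had a median of 0.09, with 4 of 16 at an unadjusted p under 0.05, all negative, where 4.01% of all genes were. They were Tk1 (-0.72, SE 0.27), the S-phase thymidine kinase that also phosphorylates stavudine, Dut (-0.62, SE 0.20), Rrm1 (-0.73, SE 0.26) and Dtymk (-0.42), which are likewise enzymes of deoxynucleotide supply. Tk1 was at 23.8 to 32.6 CPM in primary untreated, 35.8 to 46.5 in recurrent 17-DMAG, 26.6 to 31.9 in primary stavudine, and 29.6 and 21.1 in recurrent 17-DMAG plus stavudine tumors. In Tk1 the recurrent tumors without stavudine were the highest of all, and the groups overlapped in the stavudine arm. Tk2, the mitochondrial thymidine kinase, was at 0.01 (SE 0.37). The 14 genes of mitochondrial DNA maintenance had a median of -0.12 with none at an unadjusted p under 0.05.

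Of 23 genes of cytosolic nucleic acid sensing and L1 restriction, 10 were above 0 (median -0.06), with 1 at an unadjusted p under 0.05 in each direction, Morc2a (0.78, SE 0.30), a partner of the HUSH silencing complex, and Rnaseh2b (-0.75, SE 0.28), a subunit of the ribonuclease that removes ribonucleotides from DNA. Of all genes tested, 52.5% were above 0 and 47.5% below, and 3.83% were positive and 4.01% negative at an unadjusted p under 0.05. Type I interferon response genes had a median of -0.36 with 19 of 24 below 0, and Cxcl10 alone had an unadjusted p under 0.05 (-2.57, SE 1.07). The sign of that median hung on single tumors, at -1.58 without recurrent 17-DMAG plus stavudine replicate 1 and 0.18 without replicate 2. NF-kB and TNF response genes were even about 0 (11 above and 11 below, median -0.02), with Tnf and Cxcl2 (-2.94, SE 1.25), both at low CPM, at an unadjusted p under 0.05. Pentose phosphate and glycolysis genes had a median of 0.45, 15 of 20 above 0, and 3 positive and 1 negative at an unadjusted p under 0.05. Besides Tkt these were the phosphofructokinase genes Pfkl (0.94, SE 0.25) and Pfkp (1.23), and Rpia (-0.56), ribose-5-phosphate isomerase. Other pentose phosphate enzymes lay closer to 0, with Taldo1, transaldolase, at 0.44 (SE 0.21) and Pgd at -0.29 (SE 0.34), and G6pdx, the entry enzyme of the pathway, at 0.07 (SE 0.42). The plot of list medians sets these groups side by side.

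**Figure D5:**
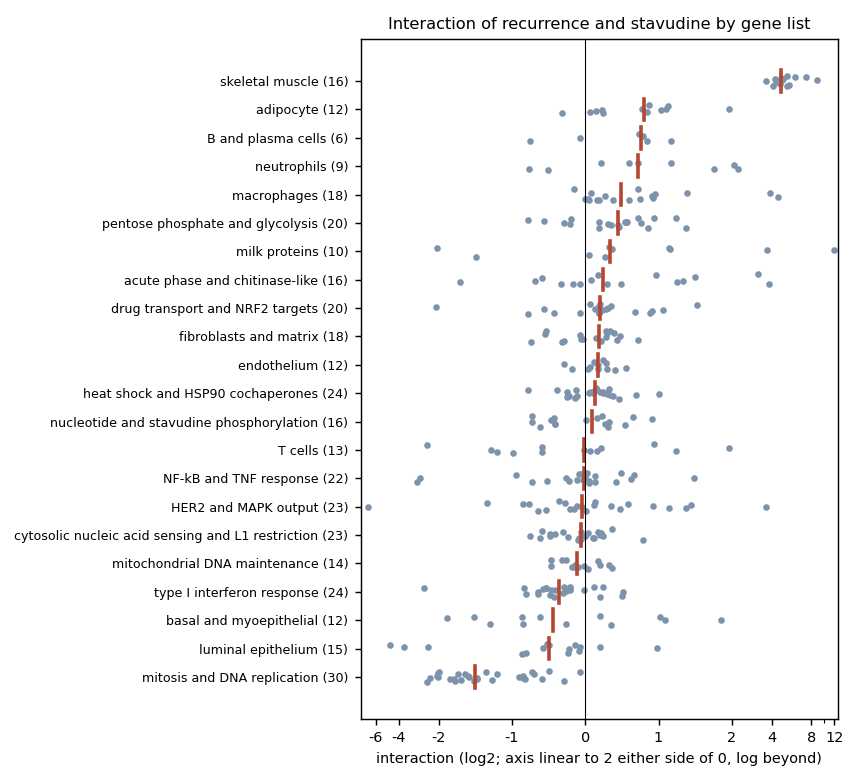
Interaction (log2, x axis) of each gene tested in the 22 gene lists (points) with the list medians (bars) on an axis that is linear near 0 and logarithmic beyond; the line marks 0, and the rightmost milk protein point is Glycam1, whose value depends on how counts of 0 are fitted. The mitosis and DNA replication list lies wholly below 0 (median -1.50), skeletal muscle is spread widely above 0 (median 4.75), and the other 20 list medians lie between -0.50 and 0.81.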

How the data were processed

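RNA depleted of ribosomal RNA was sequenced by the authors with a stranded kit, aligned to GRCm38 with STAR and counted with featureCounts (Subread 1.6.2, demultiplexing with bcl2fastq 2.20, per the submitters' processing notes). The deposited values were raw counts per gene, 1 column per library and not normalized. The strand setting and the handling of multi-mapped reads were not given in the sources used here.

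In R 4.3.3, edgeR 4.0.16 was run on the 11 tumors with filterByExpr, TMM factors (0.934 to 1.03), 4 group means and robust glmQLFit; the biological coefficient of variation was 0.402. The interaction and the change in each arm were tested with glmQLFTest (two-sided), adjusted by Benjamini and Hochberg over 16870 genes, and called at 0.05. CPM are library-scaled counts from the cpm function of edgeR, with TMM factors, with a prior count of 2 in log values. SE is the log2 value divided by the square root of F. DESeq2 1.42.0, which the study's methods name, and voom of limma 3.58.1 were alternatives, with other normalization, filters, dispersion, gene sets, a replicate block and the omission of each tumor. The tests were first tried on counts simulated with less spread than these tumors had, so that trial does not show how they perform at this spread. No pair of tumors within a group agreed within sampling noise. The floor covers counting error only.

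The genes named were the 8 with the smallest p in each direction at a mean log2 CPM of at least 1, leaving out predicted and clone names; the 4 largest crossing genes in each direction, of which 1 is not reported here; 12 fixed genes (Tkt, Chil1, Lrg1, Erbb2, Mki67, Ptprc, Acta2, Nqo1, Hspa1a, Hspa1b, Abcb1a and Abcb1b); and the 2 with the smallest p of each list. Any other gene was named after its values had been seen. The members and the 22 lists were chosen with earlier results of these data known. Gene positions come from GENCODE on GRCm38, promoters from RefSeq on GRCm38.p6.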

Additional observations from a re-analysis of the deposited data

Results flagged for a closer look

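The named crossing genes stood out because every recurrent tumor lay on one side of its primary tumors without stavudine and on the other side with it: Rspo3 (interaction 7.11, log2), Ptgds (6.04), Hoxa5 (5.96), Tnf (-2.79), Cenpf (-2.43), Cdc14a (-2.38) and Kif2c (-2.35). The interaction is itself the test of the difference between the arms, and none of these passed it after adjustment over all genes in edgeR (smallest adjusted p 0.435). They were among the 4 largest in each direction of 103 positive and 196 negative crossing genes whose mean log2 CPM was 1 or more. No explanation of these crossings was tested. When each tumor was left out in turn, all of these interactions kept their sign. They ran from 5.3 to 8.1 for Rspo3, 4.0 to 6.5 for Ptgds and 5.4 to 7.0 for Hoxa5. The ranges were -3.4 to -2.3 for Tnf, -3.5 to -1.9 for Cenpf, -2.7 to -1.9 for Cdc14a and -3.3 to -1.8 for Kif2c. Groups of 2 or 3 tumors were too small to call a single tumor an outlier.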

How the results depend on the processing

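With DESeq2 the number of called genes was 189 for the interaction, 331 for recurrence under stavudine and 61 for recurrence without stavudine, where edgeR called 0 in each; at an unadjusted p under 0.05 edgeR had 1322, 1696 and 1635. Leaving out each tumor in turn gave 0 to 77 genes for the interaction, 0 to 100 under stavudine and 0 to 1 without it. The 77 and the 100 came without recurrent 17-DMAG plus stavudine replicate 1, where the remaining tumor of the group is assumed to vary like the other groups; without recurrent 17-DMAG replicate 1 the counts were 1 and 18. The cause was not tested. limma voom, RLE factors, both other filters, the glands added, dispersion without robust estimation and removal of muscle, milk and adipocyte genes all gave 0. Of 71 named genes, 61 kept their direction in every alternative that gave them a value, which was all 20 except for 9 genes with 19. The other 10 (Abcb1a, Acta2, Eng, Hspa1a, Hspa1b, Myh1, Ptprc, Trp63, Vwf and Xbp1) turned when single tumors were left out; their ranges were -0.15 to 1.03 for Abcb1a, -0.84 to 1.96 for Acta2, -0.19 to 1.18 for Eng, -0.61 to 0.59 for Hspa1a, -0.66 to 0.21 for Hspa1b, -1.07 to 14.58 for Myh1, -0.60 to 0.25 for Ptprc, -0.98 to 2.70 for Trp63, -0.38 to 1.22 for Vwf and -0.086 to 1.35 for Xbp1.

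Replicate numbers were not treated as pairs in the main fit. Of 15 same-numbered pairs, 2 correlated above 0.1 (r from -0.288 to 0.235). These values were centered within small groups, and differently numbered tumors were not compared, so the correlations cannot exclude pairing. With the replicate number as a block 0 genes were called for the interaction, the smallest adjusted p was 0.313 (Rspo3) and 24 of 30 mitosis and replication genes had an unadjusted p under 0.05. With 2 tumors in one group, the median SE of the interaction was 0.41 (log2). A difference no larger than its SE does not reach an unadjusted p under 0.05. A gene with the median SE therefore needed a difference well above 0.41 to be resolved, and a larger one still after adjustment.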

Other observations

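Kinesins, motor proteins many of which act on the spindle, had a median interaction of -0.24 over 40 genes tested, and 13 of them had an unadjusted p under 0.05, all negative, where 4.01% of all genes did; they were chosen after their values had been seen. The Hoxc genes (6 of 6 above 0, median 0.99) and Hoxd genes (3 of 3 above 0, median 1.01) had smaller values than the Hoxa genes, with none at an unadjusted p under 0.05. In the protocadherin alpha cluster 7 of 9 genes were above 0 (median 1.09), with none at an unadjusted p under 0.05.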
